A study of Mus musculus with 6 samples.

Results

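GABA-A receptors are chloride channels opened by GABA, the main inhibitory transmitter of the adult brain, and they are assembled from 5 subunits drawn from a large family. Expression of 7 subunit genes, Gabra2, Gabra3, Gabra4, Gabra5, Gabrb1, Gabrb2 and Gabrd, was examined in the hippocampus of mice that carried an Rbfox1 transgene and of their controls. The 7 genes were listed by name, and their members were the isoform rows whose transcript name, without its final number, is a listed gene. This gave 27 isoforms of the 133944 in the deposited table, and 7 of its 53354 gene symbols.

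Alpha and beta subunits together form the GABA binding sites of the receptor, and the alpha subunit sets much of its location and kinetics. Receptors with the alpha subunits of Gabra2 and Gabra3 are known mainly from synapses. Those with the alpha subunit of Gabra5, which is enriched in hippocampal pyramidal cells, lie largely outside them, and the subunits of Gabra4 and Gabrd pair in extrasynaptic receptors of dentate granule cells. Receptors outside the synapse carry tonic inhibition. Rbfox1 is an RNA-binding protein of neurons that controls splicing and, in the cytoplasm, the stability of transcripts.

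Total RNA was sequenced from the hippocampus of 6 mice aged 3 months on a C57BL/6 background, with 1 library per mouse and 3 mice per genotype. Controls, called N-cre, carried the Nes-cre driver alone. The transgenic mice were Nes-Cre;R26-Rbfox1+/flox, called N-cre;Fox1, and carried the same driver and 1 copy of an Rbfox1 cDNA at the Rosa26 locus, under a CAG promoter and behind a floxed stop cassette that Cre removes. Both genotypes therefore carried Nes-cre, and the transgene was activated from development onwards in cells with Nes-cre activity. The values are expected counts, the number of read pairs that RSEM assigns to each isoform, which need not be whole because pairs that fit several isoforms are divided between them. They summed to 40463587 to 62141336 per N-cre mouse and to 54352011 to 59362399 per N-cre;Fox1 mouse, of which the 7 genes took 27647 to 42919.

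Some properties of the libraries bear on all comparisons. Rbfox1 itself, summed over its isoforms, stood at 14813 ± 427 normalized counts in controls and 14931 ± 1223 in N-cre;Fox1 mice (SD, n = 3). The log2 fold change was 0.01 (edgeR quasi-likelihood test, adjusted p 0.992). The genotypes overlapped for this sum, which was computed over annotated isoforms of the gene. Xist, which silences an X chromosome in female cells, was at 23514 and 22030 normalized counts in replicate 1 of N-cre and of N-cre;Fox1, and at most 22.2 in the others. The summed count of 6 choroid plexus markers, led by Ttr, was 119542 in N-cre replicate 3 and 268876 in N-cre;Fox1 replicate 2, against 1430 to 1945 in the others. Summed markers of CA1 pyramidal cells were 45636 to 49224 in controls against 42870 to 45434 in N-cre;Fox1, and those of astrocytes 218071 to 228323 against 230727 to 249885. Neither pair of ranges overlapped, but without Wfs1, 1 of the 6 CA1 markers, the CA1 sums of 36835 to 37728 and 34433 to 37084 did. So did the astrocyte sums without Gfap, at 195327 to 204019 and 202700 to 215608. With any other single marker of the CA1 or the astrocyte list left out, the ranges stayed separate. No marker of these 3 lists was at 0, and their part in the values below was not tested. In tissue RNA, fewer cells of a type and less RNA per cell cannot be told apart.

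The annotation places 3 of the genes near each other on chromosome 5 of mm10: Gabra2 at 70957597 to 71095849 and Gabra4 at 71569749 to 71658308 on the minus strand, and Gabrb1 at 71658113 to 72149037 on the plus strand. Gabra5 lies on chromosome 7 at 57407672 to 57510059 and Gabrd on chromosome 4 at 155384980 to 155398112, both on the minus strand. Gabra3 lies on chromosome X at 72432681 to 72656848 on the minus strand, and Gabrb2 on chromosome 11 at 42419757 to 42629028 on the plus strand. Gabra4-201 overlaps an exon of Gabrb1-202, on the other strand, by 46 nucleotides, and the 3 isoforms of Gabra5 overlap Gm9962 by 148.

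In Gabra2 and Gabrd the main coding isoform differs at a junction from an isoform without the full coding sequence. For each gene 1 such junction is shown, in Gabrd the first of 2. The 30 bases around those points are shown from the annotated transcript sequences, 5′ to 3′, with the bases after the junction in capitals. Positions are those of mm10. The main coding isoform of Gabra2, Gabra2-203, joins exon 4, which ends at 71034730, to a base at 71014636. Gabra2-204 leaves the same exon and enters 61 nucleotides further on, at 71014575. The shift is not a multiple of a codon. The annotation gives Gabra2-204 an open reading frame of 87 codons in place of 451 and lists it as a target of nonsense-mediated decay, the pathway that removes transcripts with an early stop codon.
The 2 isoforms also end at different places, and Gabra2-203 has 1924 nucleotides found in no other isoform of the gene, where Gabra2-204 has 0.
Gabra2-203: tcagatacagatatgGAGTATACAATAGAT
Gabra2-204: tcagatacagatatgGTCCTATGAATATCC
In Gabrd, the coding isoform Gabrd-201 joins exon 6, which ends at 155387154, to exon 7 at 155386558, whereas Gabrd-203 reads on into the intron. Gabrd-203 keeps 2 introns, of 595 and 256 nucleotides, and is annotated as a processed transcript with no coding sequence. The 851 nucleotides of these introns are in no other isoform of Gabrd. Total RNA can include unspliced transcripts, and reads of unspliced Gabrd RNA in these introns cannot be told apart from Gabrd-203.
Gabrd-201: tgaacttcaaatcggCTGGCCAGTTCCCAC
Gabrd-203: tgaacttcaaatcggGTAATGTGGCCTCTC
The 3 isoforms of Gabra5 differ in their first exons and in where their last exon ends, at 57407672, 57407719 and 57407905 for Gabra5-201, Gabra5-202 and Gabra5-203. They share an annotated coding sequence of 463 codons, so their proportions concern the ends of the transcript and not the protein. In the same order they have 311, 253 and 50 nucleotides found in no other isoform of the gene.

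The first question was how much of each subunit's RNA the hippocampus contained. Levels can be compared between genes only per length, so expected counts were divided by the annotated length of each isoform, summed for each gene and scaled to the normalized library size. On this scale of normalized counts per kilobase, Gabra5 was highest, at 3872 on average over the 6 mice (range 3514 to 4024). Gabra2 followed at 1599 (1231 to 1786), Gabra4 at 1224 (1191 to 1265) and Gabra3 at 1042 (986 to 1101). Gabrd, the delta subunit, stood at 653 (579 to 742), and the beta subunits Gabrb1 and Gabrb2 at 540 (517 to 563) and 278 (205 to 380). The ranges of Gabra2 and Gabra4 overlapped, because Gabra2 was below Gabra4 in N-cre;Fox1 replicate 1 and above it in the other 5 mice. The ranges of all other neighbours in this order were separate. The rank of Gabrb1 rests on the 13737 nucleotides annotated for its main isoform, the longest of those that lead the 7 genes.

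The genotypes were then compared gene by gene on normalized counts summed over isoforms. In the quasi-likelihood test of edgeR none of the 7 genes passed an adjusted p of 0.05, where 0.0264% of the 18924 genes tested did, and none had an unadjusted p below 0.05, against 6.19% of all genes. The 3 mice of each genotype overlapped for all 7 genes, where 12.2% of all genes did not overlap. The fitted log2 fold change was above 0 for 2 of the genes and below 0 for 5, with a median of -0.04, and 50.0% of all genes lay below 0. DESeq2's Wald test and limma-voom also called none of the 7.

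Among the alpha subunits of synaptic receptors, Gabra2 had normalized counts of 8725, 8147 and 8493 in N-cre replicates 1, 2 and 3, and of 6099, 8241 and 9185 in N-cre;Fox1 replicates 1, 2 and 3. A single N-cre;Fox1 mouse was low and another was the highest of all 6, so that the coefficient of variation was 20.2% in N-cre;Fox1 and 3.44% in N-cre mice. The log2 fold change was -0.11 (SE 0.165) with an adjusted p of 0.970 in edgeR, and 0.05 without N-cre;Fox1 replicate 1. In that mouse the neighbours of Gabra2 on chromosome 5 were not low, with 5030 normalized counts of Gabra4 and 7670 of Gabrb1.

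Gabra3 stood at 3901, 3904 and 3560 in N-cre and at 3521, 3663 and 3840 in N-cre;Fox1 mice. Its genotypes overlapped, with a log2 fold change of -0.04 (SE 0.0462) and an adjusted p of 0.941 in edgeR.

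Among the extrasynaptic subunits, Gabra5 had 9432, 9886 and 9620 normalized counts in N-cre and 9874, 8644 and 9690 in N-cre;Fox1 mice. Its lowest value was in N-cre;Fox1 replicate 2, and the log2 fold change was -0.04 (SE 0.0497, edgeR adjusted p 0.964). Gabra4 varied least but for Gabrb1, with 5090, 4903 and 4745 in controls against 5030, 4650 and 4934 in N-cre;Fox1. The log2 fold change was -0.01 (SE 0.0413, edgeR adjusted p 0.986). Gabrd, the usual partner of Gabra4 in granule cells, was at 1517, 1245 and 1332 in N-cre and at 1172, 1328 and 1421 in N-cre;Fox1 mice. The highest and the lowest value of Gabrd were both in mice with high Xist, the replicates numbered 1, and the fold change of -0.06 (SE 0.0900, edgeR adjusted p 0.965, log2 scale) was 0.10 without these 2 mice.

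**Figure D1:**
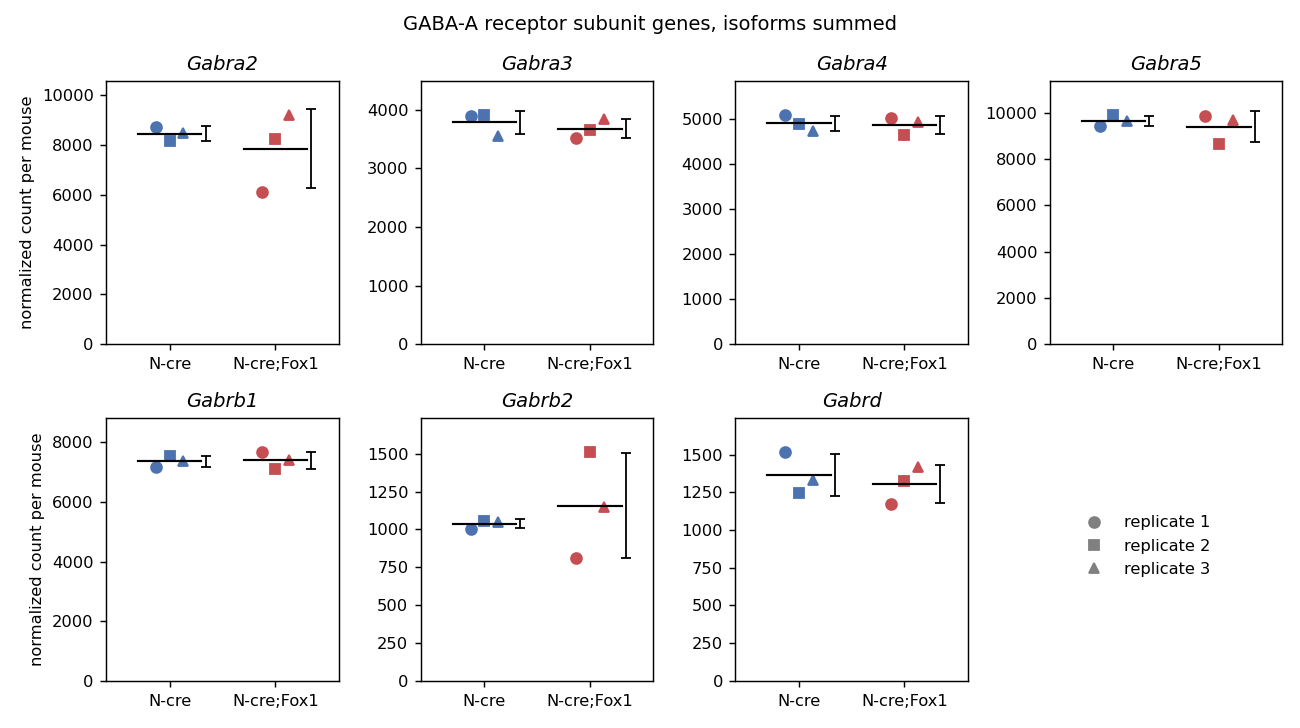
Normalized counts, summed over isoforms, of the 7 subunit genes in each mouse. Points are mice, shaped by replicate number, horizontal lines are means and bars are SD (n = 3). The genotypes overlap in all 7 panels, and Gabra2 and Gabrb2 are more spread in N-cre;Fox1 than in N-cre mice.

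The 2 beta subunits differed from each other in spread. Gabrb1 stood at 7179, 7525 and 7370 normalized counts in N-cre and at 7670, 7096 and 7414 in N-cre;Fox1 mice, with a log2 fold change of 0.01 (SE 0.0391, edgeR adjusted p 0.992). It was the most even of the 7 genes, with an SD of log2 counts of 0.04 over the 6 mice. Gabrb2 was the least even, at an SD of 0.29. Its counts were 1006, 1057 and 1052 in N-cre and 812, 1511 and 1151 in N-cre;Fox1 mice. N-cre;Fox1 mice thus held both the lowest and the highest value, and the log2 fold change of 0.16 (SE 0.238, edgeR adjusted p 0.970) became -0.08 without replicate 2 and 0.36 without replicate 1 of N-cre;Fox1. In the latter case the unadjusted p was 0.0148 and the adjusted p 0.393 in edgeR.

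The high value of Gabrb2 was in the mouse with the most choroid plexus RNA (N-cre;Fox1 replicate 2). Of the 8 striatal markers, summed to 6570 in that mouse against 4211 to 5668 in the others, Ppp1r1b took 3895, and without it the sum was 2675, within the 2277 to 2899 of the others. Of the 8 thalamic markers, summed to 7136 against 5825 to 6996, Prkcd took 2355, and without it the sum of 4782 was also within the range of the others, 4320 to 4788. No marker of these lists was at 0. N-cre replicate 3, with the other high choroid plexus count, had 1052 counts of Gabrb2 and did not stand apart. The part of these tissues in the Gabrb2 values was not tested, and without the 2 mice with high choroid plexus counts its log2 fold change was -0.07.

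Because Gabrb2 varied most, the genes whose pattern was most like it were sought among the 13736 genes that averaged 100 normalized counts or more. Likeness was the root mean square difference of centred log2 counts over the 6 mice, so a small value means a close match. Nckap5 was closest, at 0.0645, followed by Emp2 at 0.0823 and Ngfr, which encodes the p75 neurotrophin receptor, at 0.0856. Each was lowest in N-cre;Fox1 replicate 1 and highest in N-cre;Fox1 replicate 2, for Nckap5 at 254 and 461 normalized counts, as was Gabrb2. This is a description over 6 libraries, for genes picked as the closest of many.

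The intervals of limma-voom show how precisely these libraries measured each difference. For Gabrb1 the 95% interval of the log2 fold change ran from -0.08 to 0.09, for Gabra4 from -0.11 to 0.08, for Gabra5 from -0.15 to 0.07 and for Gabra3 from -0.15 to 0.06. The interval was wider for Gabrd, from -0.28 to 0.14. It was widest for Gabra2, from -0.57 to 0.31, and for Gabrb2, from -0.53 to 0.79. For these 2 genes, 3 mice per genotype do not exclude differences within these limits, in either direction.

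**Figure D2:**
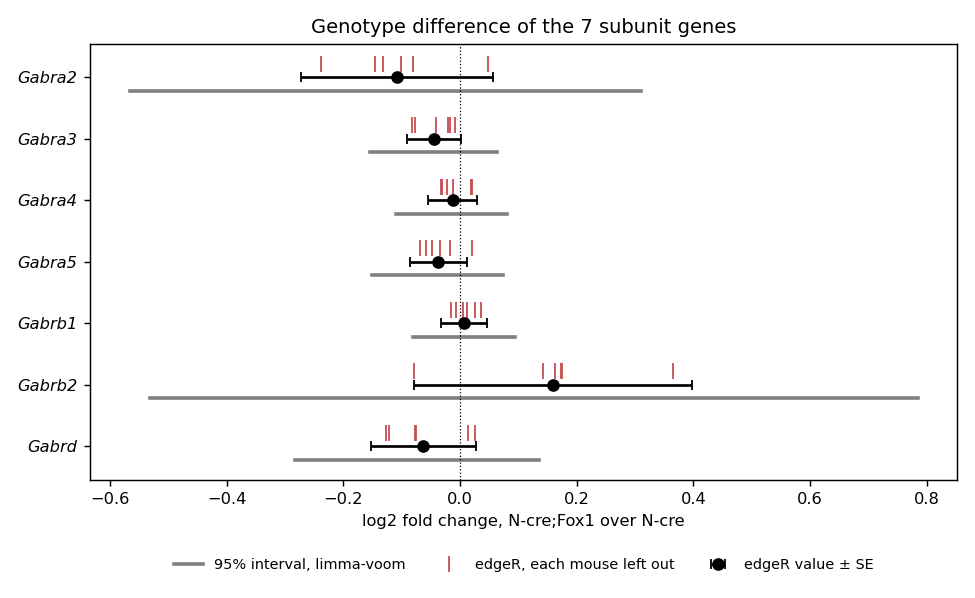
Log2 fold change of each subunit gene in N-cre;Fox1 over N-cre mice. Black points and bars are edgeR values ± SE, grey lines are 95% intervals of limma-voom, and red ticks are the edgeR values with each of the 6 mice left out in turn. All 7 intervals include 0, and those of Gabra2 and Gabrb2 are the widest.

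Isoforms were examined next, since Rbfox1 acts on splicing and on selected transcripts. Of the 27 isoforms, 19 passed the filter on low counts, and the other 8 were not tested. With edgeR none of the 19 passed an adjusted p of 0.05, as was the case for all 50556 isoforms tested (0%), and none had an unadjusted p below 0.05, against 4.78% of all isoforms. The lowest, 0.0859, was that of Gabra5-202. No tested member had genotypes that did not overlap, against 11.5% of all tested isoforms, while 9 had a log2 fold change above and 10 below 0, and 49.1% of all isoforms lay below 0.

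For 4 of the genes nearly all counts came from a single isoform, each with a full coding sequence. Gabra3-201 took 98.8% to 99.7% of its gene's expected counts, Gabra4-201 97.2% to 99.3%, Gabrb1-201 99.9% to 100% and Gabrb2-201 98.4% to 99.1%. Their isoform values therefore repeat those of the gene. Of the 27 isoforms, 16 had a mean share under 5%, and 2 of these, Gabrb2-202 and Gabrb2-205, had no count in any mouse.

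Gabra2, Gabra5 and Gabrd each had at least 2 isoforms with a mean share of 5% or more, 7 isoforms in all. With 3 mice per genotype the smallest p that an exact permutation test can give is 0.1, so no share could pass 0.05. Of the 7 shares, 2 did not overlap between genotypes, where 11.5% of 22430 isoforms with such a share did not, and after Benjamini-Hochberg adjustment over the 7 the exact p-values ran from 0.35 to 0.6.

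In Gabra2, the coding Gabra2-203 took 76.1%, 78.4% and 77.6% of the counts in N-cre and 74.5%, 76.3% and 77.3% in N-cre;Fox1 mice. The means, 77.4% ± 1.19 and 76.0% ± 1.45 (SD, n = 3), differed by about the spread between mice (exact permutation p = 0.3, two-sided). Gabra2-204, with the shifted junction shown above, took 23.5%, 21.1% and 21.9% in N-cre and 23.0%, 22.9% and 22.3% in N-cre;Fox1 mice. The isoform annotated for decay thus made up at least 21.1% of Gabra2 counts in all 6 mice, and its share overlapped between genotypes (exact permutation p = 0.6). The mouse with low Gabra2 was low in both isoforms: there Gabra2-203 and Gabra2-204 were at 4539 and 1405 normalized counts against 6289 to 7085 and 1723 to 2054 in the others.

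The 4 other isoforms of Gabra2 were each under 5%, and Gabra2-202 is described here although it was picked out after its values were seen. It is annotated as a retained intron transcript of 2628 nucleotides from the 3′ part of the gene and did not pass the filter on low counts. As for Gabrd-203, reads of unspliced RNA in the retained intron cannot be told apart from it. Gabra2-202 had no count in any N-cre mouse and 123, 6.19 and 5.50 normalized counts in N-cre;Fox1 replicates 1, 2 and 3. A count of 0 allows a share of up to 0.0295% to 0.0462% of Gabra2 in the N-cre mice, at 3 counts of the total and for counting error only. Most of the counts were in the mouse with low Gabra2, where they made up 2.01% of the gene. With isoforms of at least 1 count in total admitted, it was the only member past the threshold in diffSpliceDGE of edgeR, at an adjusted p of 0.0355. At that setting 199 of all 75323 isoforms tested passed. That test of isoform use made more false calls than its threshold allows on simulated data.

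The 3 isoforms of Gabra5 were all abundant. Gabra5-202 took 49.9%, 53.6% and 48.3% in N-cre and 45.5%, 47.5% and 48.3% in N-cre;Fox1 mice, with means of 50.6% ± 2.72 and 47.1% ± 1.43 (SD, n = 3). The genotypes did not overlap, and the mean share was lower in N-cre;Fox1, with a difference of -3.50 percentage points (exact permutation p = 0.1). The gap between the nearest mice was 0.0377 percentage points, far less than their counting error. The 95% Wilson intervals of these 2 mice ran from 47.2% to 49.4% and from 47.3% to 49.2%. Such intervals leave out error in how RSEM divided pairs between isoforms that share most of their sequence. Gabra5-203 was the reverse, at 36.8%, 35.9% and 35.1% in N-cre and 38.5%, 36.9% and 37.3% in N-cre;Fox1 mice. It was higher in N-cre;Fox1 by 1.62 points (exact permutation p = 0.1), with a gap of 0.0817 points between the nearest mice. Gabra5-201, at 13.5% ± 3.06 and 15.4% ± 0.798 (SD, n = 3), overlapped (exact permutation p = 0.4). Shares of 1 gene sum to 100%, so that these differences are not independent of each other.

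In Gabrd, the coding Gabrd-201 took 72.8%, 77.9% and 78.4% of the counts in N-cre and 76.7%, 70.1% and 71.5% in N-cre;Fox1 mice. Gabrd-203, which keeps the intron shown above, took 26.7%, 21.8% and 21.1% in N-cre and 22.8%, 29.7% and 28.3% in N-cre;Fox1 mice. These shares can include reads of unspliced Gabrd RNA, whose part was not tested. In each genotype the mouse with high Xist lay apart from the other 2, on the side of the other genotype, and the genotypes overlapped (exact permutation p = 0.2 for both isoforms). Without these 2 mice the Gabrd-203 share was higher in N-cre;Fox1 by 7.54 points, compared with 3.74 points in all mice, and 2 against 2 mice allow no exact p below 0.333. Gabrd had 1018 to 1767 expected counts per mouse, and the 95% Wilson interval of the Gabrd-201 share in N-cre replicate 1 was 70.7% to 74.9%. Wilson intervals cover counting error only.

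**Figure D3:**
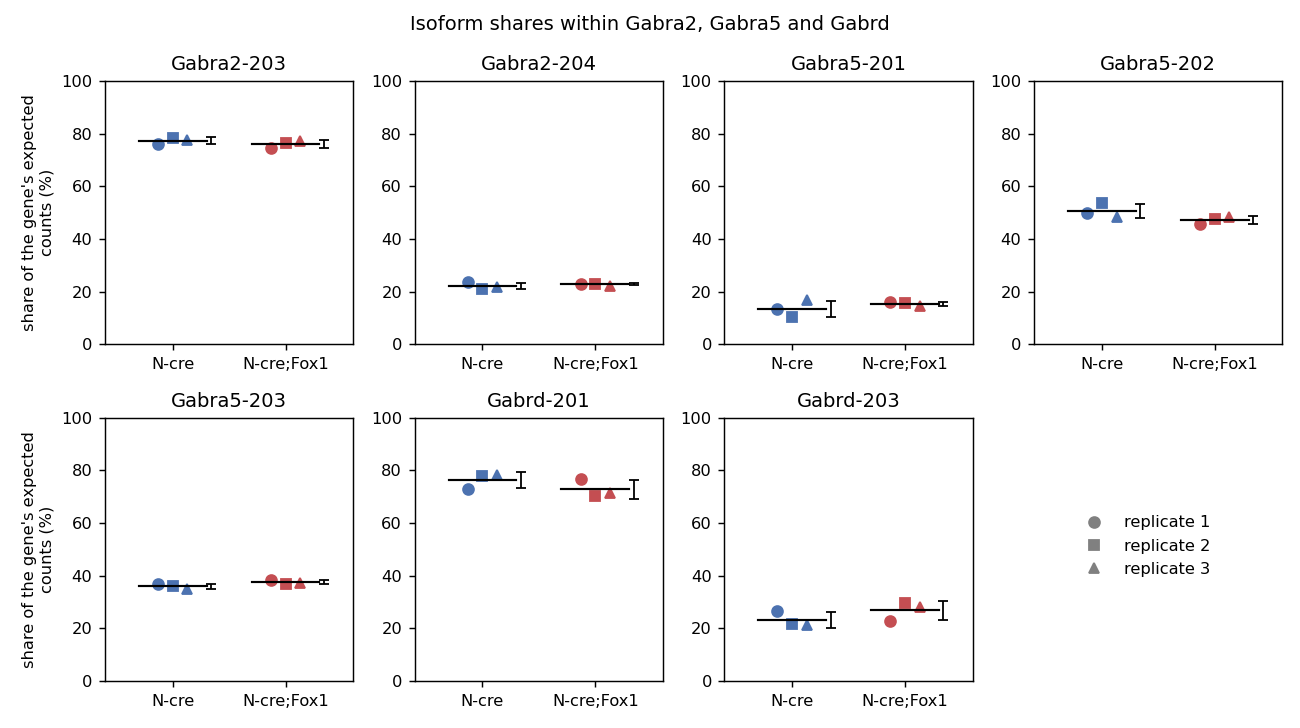
Share of each isoform in the expected counts of its gene, in percent, for the 7 isoforms of Gabra2, Gabra5 and Gabrd with a mean share of at least 5%. Points are mice, shaped by replicate number, lines are means and bars are SD (n = 3). Gabra5-202 and Gabra5-203 do not overlap between genotypes, by gaps of 0.0377 and 0.0817 points, and the other 5 isoforms overlap.

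In a test across all isoforms of the use of each within its gene, diffSpliceDGE of edgeR called none of the members and 0.217% of the 42441 isoforms tested, and gave no member an unadjusted p below 0.05, against 2.03% of all. The same comparison on log ratios with limma called none of the members and 0.00236% of all isoforms, again with no member at an unadjusted p below 0.05, against 5.30% of all. For Gabra5-202 the log2 ratio to the rest of its gene differed by -0.20 (SE 0.0961), with an adjusted p of 0.904 in limma.

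Finally, the proportions of the subunit RNAs were compared, since receptors are assembled from a mix of subunits. All proportions used counts per kilobase, summed over all isoforms. They thus include Gabra2-204 and Gabrd-203, which lack the full coding sequence. Per kilobase these made up 29.4% of Gabra2 and 17.4% of Gabrd on average in N-cre mice, and 29.7% and 20.5% in N-cre;Fox1 mice. The proportions describe RNA and not assembled receptors. Among the 4 alpha genes, Gabra5 made up 49.9% ± 1.29 in N-cre and 50.2% ± 3.11 in N-cre;Fox1 mice (SD, n = 3). Gabra2 made up 21.6%, 20.0% and 21.3% in N-cre and 16.4%, 22.2% and 22.3% in N-cre;Fox1 mice. Gabra4 made up 15.6% ± 0.326 in controls and 16.1% ± 0.755 in N-cre;Fox1, and Gabra3 13.5% ± 0.525 and 13.5% ± 0.452. The means differed by less than the spread between N-cre;Fox1 mice for all 4. N-cre;Fox1 replicate 1 stood apart, with 16.4% Gabra2 and 53.7% Gabra5, where the other 5 mice had 20.0% to 22.3% and 47.7% to 50.9%.

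Of the 2 beta genes, Gabrb2 made up 32.6%, 32.7% and 32.7% in N-cre and 26.7%, 42.4% and 35.3% in N-cre;Fox1 mice. The N-cre mice had an SD of 0.0562 percentage points (n = 3), and the N-cre;Fox1 mice lay on either side of them, so that the means of 32.7% and 34.8% did not differ beyond the spread (exact permutation p = 0.7).

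The extrasynaptic part, Gabra4, Gabra5 and Gabrd among the alpha and delta genes, was 67.5%, 68.8% and 68.5% in N-cre and 72.5%, 66.7% and 67.3% in N-cre;Fox1 mice. It was highest in the mouse with low Gabra2 and 66.7% to 68.8% in the other 5 (exact permutation p = 1). Gabrd was present at 58.6, 50.6 and 55.4 per 100 of Gabra4 in N-cre and at 46.1, 53.5 and 56.0 in N-cre;Fox1 mice (exact permutation p = 0.6). None of the 15 proportions computed had genotypes that did not overlap, and the adjusted p was 1 for all 15. These sums treat each gene as wholly synaptic or extrasynaptic, which holds for the receptors only in the main.

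**Figure D4:**
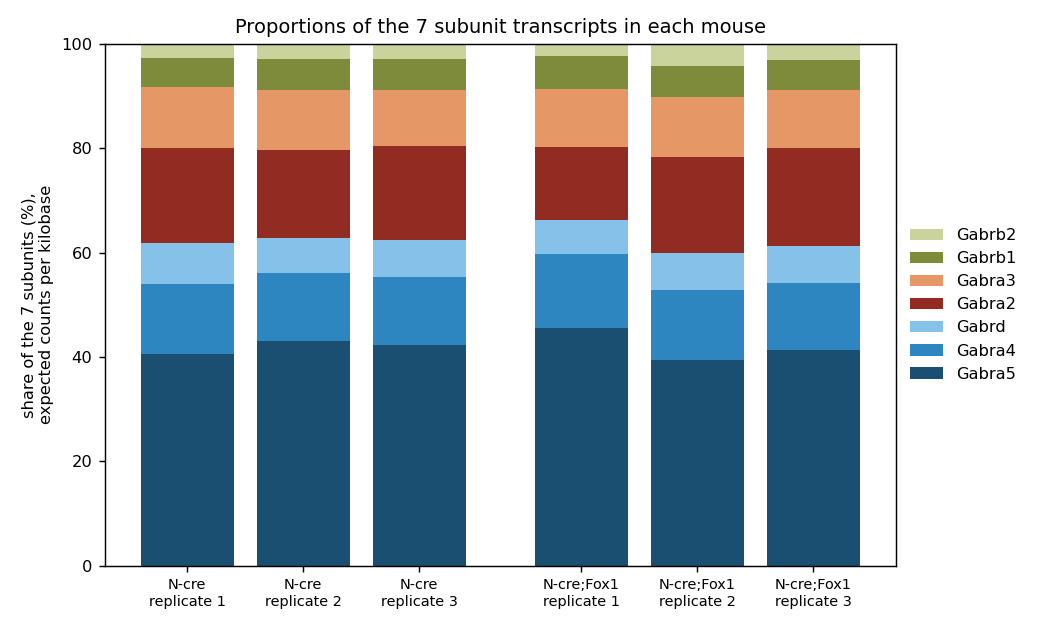
Proportions of the 7 subunit transcripts in each mouse, in percent of their summed expected counts per kilobase. Blue marks the extrasynaptic genes Gabra4, Gabra5 and Gabrd, red and orange the synaptic alpha genes, and green the beta genes. Gabra5 is 39.5% to 45.5% of the sum in all 6 mice, and Gabra2 is 13.9% in N-cre;Fox1 replicate 1 against 17.0% to 18.7% in the others.

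The wider GABA system was described with 5 lists of 39 genes, of which 37 were found by symbol and 33 passed the filter on low counts. None passed an adjusted p of 0.05 in edgeR, where 0.0264% of all genes tested did. For 9 the log2 fold change was above and for 24 below 0, with 50.0% of all genes below 0, and the median was -0.03. Among other GABA-A subunits 3 of 8 lay above 0, among inhibitory synapse genes 3 of 11, among genes of GABA synthesis, transport and breakdown 1 of 8, among GABA-B receptor genes 1 of 4, and of the chloride transporters 1 of 2. Kctd16, an auxiliary subunit of GABA-B receptors, was alone in having an unadjusted p below 0.05, 1 of the 33 where 6.19% of all genes did. Its counts were low, at 103, 115 and 91.6 in N-cre and 160, 130 and 139 in N-cre;Fox1 mice, with a log2 fold change of 0.47 (SE 0.151) and an adjusted p of 0.715 in edgeR.

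Gad1 and Gad2, which make GABA, had normalized counts of 19296 ± 836 and 8315 ± 603 in N-cre and 18770 ± 259 and 8238 ± 143 in N-cre;Fox1 mice (SD, n = 3). Gphn, the scaffold gephyrin of inhibitory synapses, had 4024 ± 89.7 and 3968 ± 190, and Slc12a5, the chloride exporter KCC2, 33925 ± 878 and 32525 ± 1411. The adjusted p in edgeR was above 0.9 for each of these 4 genes.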

How the data were processed

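The 6 hippocampal RNA-seq libraries were grouped by the genotype in the sample labels, 3 in each. The authors trimmed reads with cutadapt 1.18, aligned them to mm10 with STAR 2.5.2b and quantified isoforms with RSEM 1.3.0. They deposited the expected counts per isoform, not normalized. The strand setting of RSEM is not given in the sources used here, so reads of overlapping genes on opposite strands cannot be assigned with certainty.

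Expected counts were rounded, summed over isoforms by gene symbol and filtered with filterByExpr (minimum count 10, minimum total 15). The genotypes were compared with the quasi-likelihood test of edgeR 4.0.16 (TMM, robust, genotype as the only term) in R 4.3.3, with Benjamini-Hochberg adjustment over all features tested and a threshold of 0.05. EBSeq, the authors' tool, was not installed. Use of isoforms within genes was tested with diffSpliceDGE and, added after the data were seen, with limma 3.58.1 on log2 ratios with 0.5 counts added. Both were tested on simulated data, where diffSpliceDGE made more false calls than its threshold allows and limma few. Shares and proportions were compared with two-sided exact permutation tests (SciPy 1.17.1). Lengths and positions came from GENCODE M21, later than the authors' release, in which all 27 isoforms had the same identifier and version.

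All 7 genes and their isoforms with a mean share of at least 5% were named, with pathway genes fixed by list or with an unadjusted p under 0.05, and the 3 genes most like the member with the largest spread. Some listed pathway genes are not reported here. The members and lists were chosen with earlier results of these data known. Labels do not state whether mice were littermates, and p-values measure the spread between these 6 samples. Depth per mouse was 40463587 to 62141336 expected counts, so the number of mice limits the precision for abundant isoforms. Alternatives were other normalizations, filters and tests (DESeq2 1.42.0, limma-voom), counts not rounded, other units and lengths, a replicate block, a term for Xist, each mouse left out, and, added after the data were seen, the 2 mice with Xist above 1000 or the 2 with choroid plexus markers above 10000 left out.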

Additional observations from a re-analysis of the deposited data

How the results depend on the processing

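No member gene, no member isoform and no gene of the pathway lists passed the threshold under any alternative run. For isoform use, admitting isoforms of at least 1 count in total gave 1 member call, Gabra2-202, where 199 of all 75323 isoforms tested were called. No member was called under the other alternatives. Leaving out each mouse gave log2 fold changes of -0.238 to 0.0484 for Gabra2, -0.0330 to 0.0198 for Gabra4, -0.0682 to 0.0206 for Gabra5, -0.0147 to 0.0362 for Gabrb1, -0.0783 to 0.365 for Gabrb2 and -0.128 to 0.0258 for Gabrd. Without the 2 mice with high Xist the sign turned for Gabra2 (0.0726), Gabra3 (0.0130), Gabrb1 (-0.0318) and Gabrd (0.0995), and without the 2 with high choroid plexus markers for Gabra5 (0.0204) and Gabrb2 (-0.0672). Upper quartile normalization gave -0.0028 for Gabrb1. Each of the 7 genes changed sign under at least 1 alternative.

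The number of isoform shares that did not overlap was 2 to 6 with a mouse left out (6 without N-cre replicate 1, 4 without N-cre;Fox1 replicate 1) and 6 without the mice with high Xist. For the 15 proportions it was 0 to 6 with a mouse left out, 6 of them without N-cre;Fox1 replicate 1, 9 without the mice with high Xist and 2 without those with high choroid plexus markers. Fewer mice per genotype make separate ranges more frequent, and the share over all isoforms was computed with all 6 mice only. Shares of 1 gene, and proportions of the same genes, depend on each other, so these are not counts of separate events. The differences of the 7 shares kept their sign in all 84 recomputed values, while 14 of the 15 proportions changed sign in at least 1. Among the 84, those with a replicate block, and those of Gabra5 with tested isoforms only, equal the main values by construction.

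Labels do not say whether replicate numbers pair the mice. Correlations of deviations were 0.365, -0.0819 and -0.190 for same-numbered mice, and -0.359 to 0.415 for the others. With 3 mice per genotype these cannot settle whether the mice were paired. With a replicate block, 0 genes and 0 isoforms of the members were called, log2 fold changes were -0.13 for Gabra2 and 0.11 for Gabrb2, and the counts of shares and proportions that did not overlap, 2 and 0, are the same by construction.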
